A study of Homo sapiens with 4 samples.

Results

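The urothelial differentiation genes examined here were 10 genes of the differentiated, luminal bladder epithelium, out of 57879 genes listed for each library. They were found by gene symbol, a rule that uses no measured value, and comprised the 5 uroplakins UPK1A, UPK1B, UPK2, UPK3A and UPK3B and the 5 transcription factors PPARG, GATA3, FOXA1, ELF3 and GRHL3. The measurements were made by RNAseq of T24, an established human line from a bladder carcinoma. Control cells carried an empty vector (EV), and the other group stably expressed the catalytic domain of TET1 (TET1-CD), with 2 libraries in each group. Both groups were grown in RPMI medium with 10% serum. The construct was delivered by lentivirus and infected cells were selected with puromycin. Whether a population was a pool or a clone is not stated in the sources used here, nor is whether the 2 libraries of a group came from separate cultures. The p-values therefore measure the spread between these libraries, which may be technical.

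The bladder is lined by urothelium, in which basal cells give rise to intermediate cells and to large umbrella cells at the surface. Umbrella cells make uroplakins, membrane proteins that assemble into rigid plaques and form the urine barrier. UPK1A pairs with UPK2, and UPK1B pairs with UPK3A or UPK3B, before the proteins leave the endoplasmic reticulum. PPARG, a nuclear receptor that binds DNA with a retinoid X receptor, acts with the pioneer factors FOXA1 and GATA3 to drive luminal genes. ELF3, an epithelial ETS factor, and GRHL3, a grainyhead-like factor, act downstream of or beside PPARG in late differentiation. TET1 oxidizes 5-methylcytosine, the first step of active DNA demethylation, and its substrate in these cells lies mostly at CG dinucleotides.

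Because that substrate is the CG dinucleotide, the sequence before the start site was read for the genes described here. RefSeq promoter windows (GRCh38.p14, 250 bases before to 50 bases after a start site) were given for 8 of the 10 genes, and not for UPK2 and UPK3A. Each of their 19 windows matched the chromosome of its gene exactly once, on the strand of the gene, in GRCh37, the build of the deposited files. Other chromosomes were not searched. The 250 bases upstream of 3 starts are printed 5′ to 3′ on the strand of the gene, with every CG in capitals. The 3 genes were picked with the results known. They are GATA3 and FOXA1, whose level rose, and UPK1A, a uroplakin with 0 to 2 counts in each library. ELF3, which fell and had 7 CG dinucleotides in its window, is not printed. Whether CG content bears on the change of any gene was not tested. On GRCh37 they lie at chr10:8096401-8096650 (plus strand, start site of ENST00000379328, the main GATA3 transcript), chr14:38064455-38064704 (minus strand, start site of ENST00000250448, the main FOXA1 transcript) and chr19:36157169-36157418 (plus strand, UPK1A). The first and second lie inside the span of their gene in the files, since other transcripts of GATA3 and FOXA1 start further upstream. The third precedes a RefSeq start site at 36157419, whereas UPK1A begins at 36157715 in the files. Its bases are therefore not directly upstream of a UPK1A transcript that was counted.
GATA3: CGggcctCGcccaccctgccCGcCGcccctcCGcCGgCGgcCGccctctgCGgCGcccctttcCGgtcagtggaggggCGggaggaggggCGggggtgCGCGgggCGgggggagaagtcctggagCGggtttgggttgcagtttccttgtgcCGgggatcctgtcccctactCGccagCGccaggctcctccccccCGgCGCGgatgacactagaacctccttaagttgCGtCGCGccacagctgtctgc
FOXA1: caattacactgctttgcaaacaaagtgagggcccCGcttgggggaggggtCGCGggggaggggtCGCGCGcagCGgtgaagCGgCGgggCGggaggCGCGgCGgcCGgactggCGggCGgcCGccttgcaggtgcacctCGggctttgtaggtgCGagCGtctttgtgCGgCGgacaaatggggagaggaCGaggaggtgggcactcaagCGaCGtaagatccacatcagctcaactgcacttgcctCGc
UPK1A: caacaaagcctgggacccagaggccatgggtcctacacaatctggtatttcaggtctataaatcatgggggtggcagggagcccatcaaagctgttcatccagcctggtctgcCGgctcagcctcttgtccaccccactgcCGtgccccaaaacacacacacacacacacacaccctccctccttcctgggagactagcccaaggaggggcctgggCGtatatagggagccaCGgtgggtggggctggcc
The upstream bases held 26 CG dinucleotides in GATA3, 26 in FOXA1 and 4 in UPK1A. The search used the letters CG, which read the same on both strands.

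Over the full 300-base windows, the GATA3 start held 29 CG dinucleotides (69.3% GC) and the FOXA1 start 34 (69.3% GC). Across all 35116 RefSeq windows, 24.2% held at least 29 and 15.6% at least 34, and the median was 14. The other 5 GATA3 windows held 16, 18, 16, 36 and 5. The ELF3 start site, shared by ENST00000367283 and ENST00000367284, had 7 CG dinucleotides, and 63.2% of all windows had at least as many. That window, which lies inside the span of ELF3, is not printed. Among the uroplakins, UPK1B had 11, UPK1A 4 and UPK3B 2, all under the median. GRHL3 had 7 and 10 in its 2 windows. PPARG had between 1 and 10 in its 6 windows, and the start of its main transcript, ENST00000309576, lies 492 bp downstream of the nearest windowed start. CG content is a property of the reference sequence only. Methylation was not measured in these libraries.

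**Figure D1:**
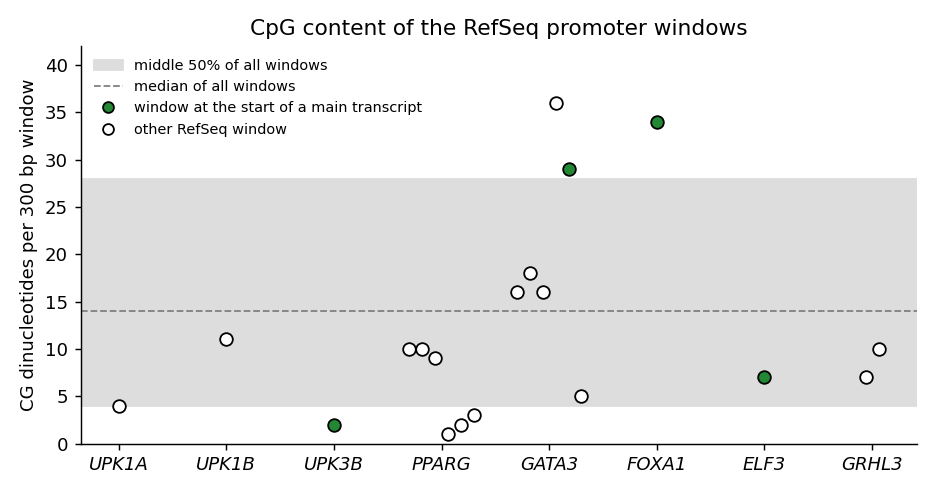
CG dinucleotides (y axis, count per 300 bp) in each RefSeq promoter window of 8 genes (x axis), with filled points for windows whose start site is the start of a main transcript. The grey band holds the middle 50% of all 35116 windows and the dashed line is their median of 14. GATA3 (29) and FOXA1 (34) lie above the band at their main start, ELF3 (7) and UPK3B (2) below the median.

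The libraries held 17442143 to 20295266 estimated fragments, the groups overlapped in depth, and the smallest amount taken as detectable, 3 counts in a library, corresponded to 0.148 to 0.172 CPM (counts scaled by the library total). TET1 had 111 and 83 counts with EV, and 2939 and 3310 with TET1-CD, in the direction of the labels. The labelled cell type was compared with its markers. The epithelial keratins KRT18 and KRT8 had FPKM values (fragments scaled by transcript length and library size) of 395.58 to 466.66 and 445.15 to 494.79, and the mesenchymal VIM of 1343.7 to 1837.44. CDH1, the epithelial cadherin, had between 0 and 2 counts. The umbrella cell keratin KRT20 and the basal keratin KRT5 were listed at 0 in all 4 libraries, the basal keratin KRT14 had between 0 and 2 counts, and the basal factor TP63 had 2 and 2 with EV, and 0 and 0 with TET1-CD. Of 13 matched markers of immune, endothelial, stromal and muscle cells, 7 were at 0 to 6 counts in every library (PTPRC, CD3E, DCN, LUM, COL1A2, DES and VWF). The other 6 were higher. CD68, a lysosomal protein used as a macrophage marker, had 494 and 577 counts with EV, and 411 and 451 with TET1-CD. COL1A1 had 70 to 314 counts across the libraries and ACTG2 36 to 152, while CD14, CDH5 and MYH11 had 8 to 22. Not every basal marker was low. Of 17 listed, 9 had too few counts for a test, but CD44 had FPKM values of 495.77 to 597.55 and EGFR of 67.61 to 77.98. The T24 libraries thus carried an epithelial keratin pair together with VIM and CD44, and neither KRT20 nor KRT5.

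UPK1A, UPK1B, UPK2 and UPK3A were at the edge of detection in both groups. UPK1A, a tetraspanin, had 2 and 1 counts with EV, and 1 and 0 with TET1-CD. UPK1B, its tetraspanin relative, had 1 and 0 with EV, and 0 and 0 with TET1-CD. UPK3A, the partner of UPK1B, had 0 and 1 with EV, and 1 and 1 with TET1-CD. All 3 genes were at or under 3 counts in every library, so a difference between the groups was not detectable at this depth. UPK2, which pairs with UPK1A, had 1 and 5 counts with EV, and 5 and 6 with TET1-CD, and the groups met at 5. Summed over these 4 genes, the counts were 4 and 7 with EV, and 7 and 7 with TET1-CD. The sums did not separate the groups. On GRCh37 the files place UPK1A on chromosome 19 (36157715 to 36169367), UPK1B on chromosome 3 (118892364 to 118924000), UPK2 on chromosome 11 (118795873 to 118829269) and UPK3A on chromosome 22 (45680863 to 45691755), all on the plus strand.

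UPK3B was the only uroplakin with enough counts for a test. It had 20 and 16 counts with EV, and 38 and 27 with TET1-CD, and the lower TET1-CD library lay above the higher EV library. After TMM normalization, which scales counts to a common library size, the values were 17.9 ± 0.841 (SD, n = 2) with EV and 33.1 ± 10.4 (SD, n = 2) with TET1-CD. The log2 fold change was 0.87 (standard error, SE, 0.36; 95% interval 0.07 to 1.67), and the adjusted p of 0.12 from edgeR's quasi-likelihood test missed the threshold of 0.05. Here and below, p-values were adjusted by the Benjamini-Hochberg method over all genes tested. The gene has a close relative, UPK3BL, and estimated counts could be split between them. UPK3BL moved the other way, from 31 and 13 counts with EV to 0 and 6 with TET1-CD (log2 fold change -2.80, SE 0.78, edgeR adjusted p = 0.0323). The sum of both genes was 51 and 29 counts with EV, and 38 and 33 with TET1-CD, and the groups overlapped. In a fit with this sum, chosen after the values were seen, the log2 fold change was -0.14 (SE 0.30, edgeR adjusted p = 0.785), the opposite sign from UPK3B alone. On GRCh37 the files place UPK3B on chromosome 7 from 76139745 to 76648340, a span of 508596 bp that its 2 longest transcripts account for, both listed at 0. The 3 transcripts that each carried at least 5% of its counts (61.1%, 23.2% and 10.5%) start between 76139842 and 76139932.

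**Figure D2:**
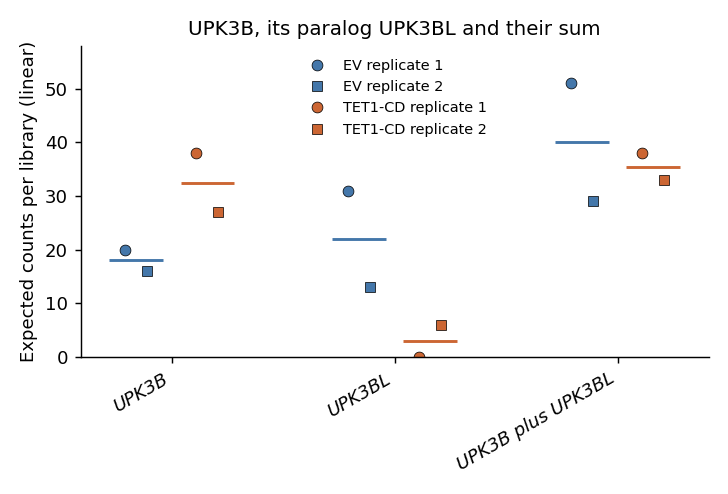
Expected counts per library (y axis, linear from 0) of UPK3B, UPK3BL and their sum, with points for the 2 EV and 2 TET1-CD libraries and bars for the group means. TET1-CD lies above EV for UPK3B, below it for UPK3BL, and overlaps it for the sum (51 and 29 against 38 and 33).

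The transcription factors were expressed at different levels. Per kilobase, PPARG was highest, with FPKM values of 12.46 and 11.35 with EV, and 12.75 and 13.02 with TET1-CD. FOXA1 came next, with 8.29 and 7.78 with EV, and 9.64 and 11.16 with TET1-CD, followed by ELF3 with 4.01 and 5.53 with EV, and 3.47 and 3.53 with TET1-CD. The 4 values of each of these 3 genes did not overlap those of the next. UPK3B (0.81 and 0.89 in EV, 1.83 and 1.09 in TET1-CD cells) and GATA3 (0.55 and 0.38 in EV, 1 and 0.97 in TET1-CD cells) overlapped each other. Both lay above UPK2, between 0.05 and 0.33, which overlapped or met UPK1A, UPK3A and GRHL3, all between 0 and 0.1. UPK1B, between 0 and 0.03, lay below UPK2 and overlapped the other low genes. PPARG and FOXA1 were thus the most abundant of the 10 transcripts per length, in libraries where UPK1A, UPK1B and UPK3A stayed at or under 3 counts.

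**Figure D3:**
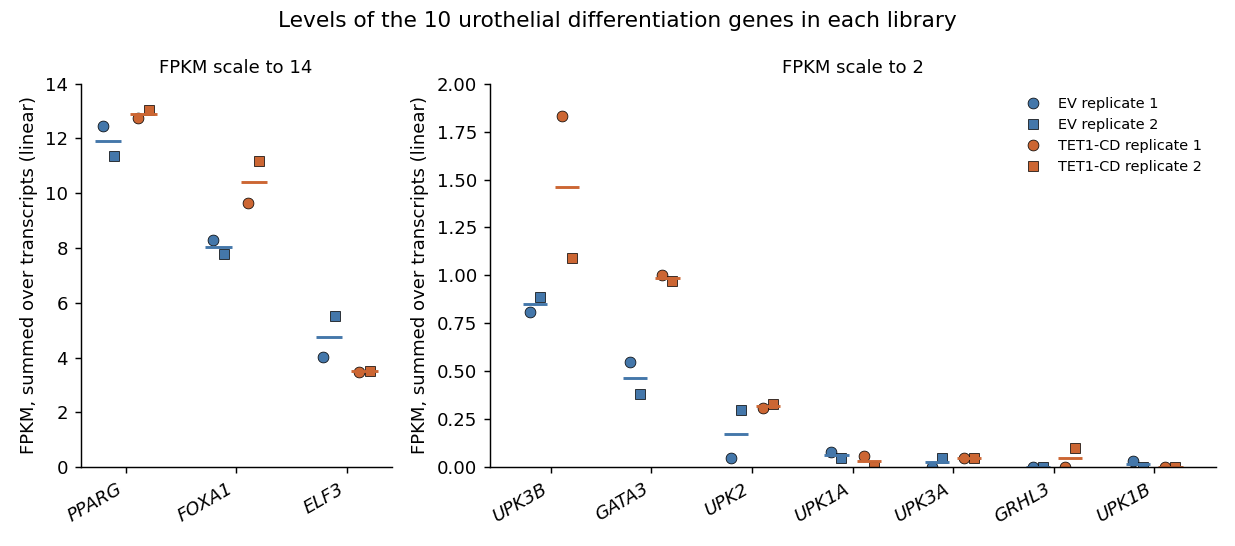
FPKM summed over the transcripts of each gene (y axes, linear from 0, with a separate scale for the 3 highest genes), with points for the 2 EV and 2 TET1-CD libraries and bars for the group means. GATA3 and FOXA1 lie higher and ELF3 lower in TET1-CD than in EV cells, and UPK1A, UPK3A, GRHL3 and UPK1B stay at or below 0.1.

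Of the 10 genes, 5 had enough counts for a test, namely UPK3B and 4 factors, and each of the 5 had at least 16 counts in every library, so none was tested through 1 group alone. Among them, 3 passed an adjusted p of 0.05 from edgeR, 2 of them higher with TET1-CD and 1 lower, and 1 of these also reached a fold change of 2. In the background of 14573 genes tested, 19.7% passed (10.0% higher and 9.61% lower), and 3.77% passed with a fold change of 2. The normalized values of the groups were apart for each of the 5 tested genes, and likewise for 61.0% of all genes tested. The median log2 fold change of the 5 was 0.37, against 0 for all genes tested.

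GATA3, a zinc finger factor that luminal urothelium keeps and basal carcinomas lose, showed the largest fold change of the 5 tested genes. On chromosome 10 of GRCh37 (8095567 to 8117161, plus strand), it had 19 and 19 counts with EV, and 46 and 44 with TET1-CD. The groups were well apart, with 45.4 ± 4.98 normalized counts (SD, n = 2) against 19 ± 2.10 (SD, n = 2). GATA3 rose by 1.25 on the log2 scale (SE 0.30, 95% interval 0.59 to 1.92), or 2.38-fold, with an adjusted p of 0.0163 from edgeR. DESeq2, the tool of the study's methods, gave nearly the same log2 fold change (1.26, SE 0.51) with an adjusted p of 0.0886. The study's own threshold was unlike the one used here. It asked for p under 0.05, with no adjustment named, and at least a 2-fold change. Over 11 alternatives the log2 fold change lay between 1.13 and 1.36 and the adjusted p between 9.40e-04 and 0.178, and it passed 0.05 in 7 of them.

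FOXA1, a forkhead pioneer factor, rose less and from a higher level. It lies on chromosome 14 (38059189 to 38069245, minus strand) and had 455 and 366 counts with EV, and 467 and 587 with TET1-CD. The normalized counts were 407 ± 17.6 (SD, n = 2) with EV and 528 ± 43.9 (SD, n = 2) with TET1-CD, and the groups did not overlap. The log2 fold change was 0.37 (SE 0.09, 95% interval 0.17 to 0.58), or 1.30-fold, with an adjusted p of 0.0204 from edgeR and 0.0674 from DESeq2, and from 0.00297 to 0.233 in the 11 alternatives. Nearly all of its counts, 96.2% to 99.1% in each library, were assigned to ENST00000250448.

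ELF3 fell. On chromosome 1 (201977073 to 201986316, plus strand), it had 180 and 170 counts with EV, and 98 and 142 with TET1-CD, and both TET1-CD libraries were below both EV libraries. Its TET1-CD libraries differed from each other more than its EV libraries, with 120 ± 21.9 normalized counts (SD, n = 2) against 175 ± 12.3 (SD, n = 2). The log2 fold change was -0.54 (SE 0.15, 95% interval -0.88 to -0.19), or 1.45-fold lower, with an adjusted p of 0.0361 from edgeR and 0.148 from DESeq2, and from 0.00309 to 0.303 in the 11 alternatives. None of the 3 calls held in every fit that left out 1 library. Without TET1-CD replicate 1 the log2 fold change from edgeR was 1.14 for GATA3, 0.46 for FOXA1 and -0.37 for ELF3. Without TET1-CD replicate 2 it was 1.36 for GATA3, 0.29 for FOXA1 and -0.74 for ELF3. Leaving out EV replicate 1 gave 1.13 for GATA3, 0.41 for FOXA1 and -0.62 for ELF3. Leaving out EV replicate 2 gave 1.36 for GATA3, 0.33 for FOXA1 and -0.47 for ELF3. The sign of the 3 log2 fold changes stayed the same in all 11 alternatives.

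PPARG, the factor at the top of the luminal program, did not pass the test. It lies on chromosome 3 (12328867 to 12475855, plus strand) and had 451 and 363 counts with EV, and 403 and 461 with TET1-CD. After normalization the TET1-CD libraries (428.9 and 439.1) lay just above the EV libraries (416.2 and 391.7). The log2 fold change was 0.10 (SE 0.09, edgeR adjusted p = 0.465), and its 95% interval of -0.10 to 0.30 leaves room for a rise of up to 0.30 or a decrease of 0.10 on the log2 scale. GRHL3, on chromosome 1 (24645812 to 24690972, plus strand), was listed at 0 in both EV libraries and in TET1-CD replicate 1, and had 2 counts in TET1-CD replicate 2, all under 3 counts.

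**Figure D4:**
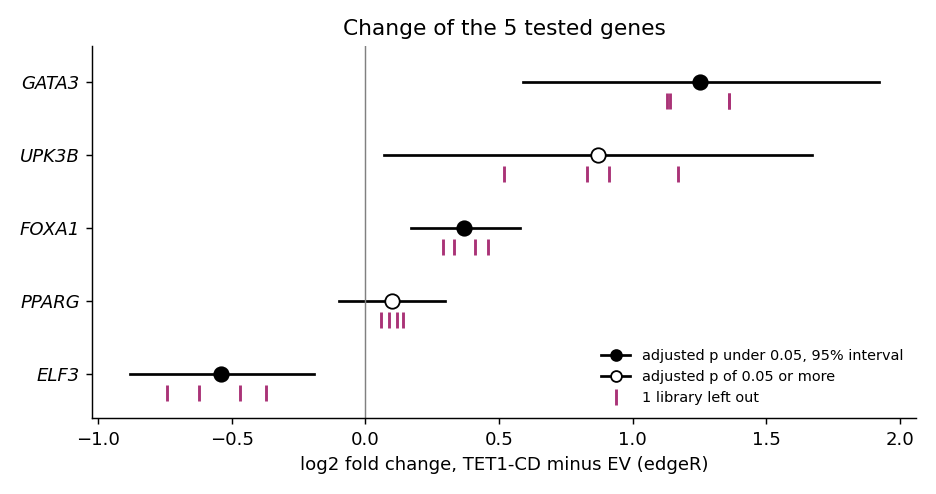
Log2 fold change of TET1-CD over EV cells from edgeR (x axis) for the 5 genes tested, with 95% intervals as lines, filled points for an adjusted p under 0.05, and ticks for the 4 fits that leave out 1 library. GATA3 (1.25) and FOXA1 (0.37) lie above 0 and ELF3 (-0.54) below it, and the ticks of every gene stay on the side of its point.

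The 10 genes have 63 transcripts in the files, of which 29 were listed at 0 in all 4 libraries and 12 had enough counts for a test. By edgeR 0 of the 12 passed an adjusted p of 0.05, against 0.00231% of all transcripts tested, and 2 of the 12 had an unadjusted p under 0.05. DESeq2 called 1 of them, the PPARG transcript ENST00000397012. This transcript was listed at 0 in both EV libraries and at 40.4 and 58.4 estimated counts in the TET1-CD libraries, or 10% and 12.7% of PPARG. Estimated counts of overlapping transcripts are uncertain, since reads can be split between them. Another PPARG transcript, ENST00000397015, had 103.9 and 27.0 counts in the EV libraries. For PPARG as a whole the log2 fold change was 0.10. Whether the use of ENST00000397012 differed was not tested apart from this uncertainty. The main PPARG transcript, ENST00000309576, had 309.8 and 269.2 counts with EV, and 291.7 and 264.4 with TET1-CD. ENST00000287820, which starts at 12392971, far downstream of the others, and has the start of the adipocyte form of PPARG, had 9.86 and 39.9 counts with EV, and 8.34 and 31.4 with TET1-CD. The groups overlapped for every tested PPARG transcript but ENST00000397012.

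For ELF3, the groups were apart for ENST00000367284, which had 84.3 and 51.9 counts with EV, and 12.7 and 41.6 with TET1-CD (log2 fold change -1.30, SE 0.62, edgeR adjusted p = 0.573). ENST00000367283, which shares its start site, had 79.9 and 74.8 with EV, and 61.4 and 83.0 with TET1-CD, and the groups overlapped. For GATA3, the 2 main transcripts, ENST00000379328 and ENST00000346208, start at 8096651 and 8096773. The first had 16.4 and 13.2 counts with EV, and 34.4 and 26.6 with TET1-CD, and the second had 0.001 and 5.79 against 10.6 and 15.4. Both were above EV in both TET1-CD libraries, with adjusted p-values of 0.496 and 0.747 from edgeR.

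The relatives of the 5 factors moved in both directions. For this and the later lists, the numbers that rose and fell count genes with an edgeR adjusted p under 0.05. Among all genes tested, 19.7% passed that threshold. Of 16 paralogs, 9 were tested, 3 rose and 3 fell, with a median log2 fold change of 0.03. EHF, an epithelial ETS factor of the ELF3 subfamily, fell from 125 and 111 counts with EV to 32 and 22 with TET1-CD (log2 fold change -2.10, SE 0.23, edgeR adjusted p = 2.77e-04). ELF1, another ETS factor, fell by 0.35 on the log2 scale (edgeR adjusted p = 0.00298). GATA2 rose from 372 and 243 counts to 504 and 506, with a log2 fold change of 0.74 (SE 0.13, edgeR adjusted p = 0.00316). PPARD, the broadly expressed PPAR, rose by 0.36 (edgeR adjusted p = 0.0191). GRHL2, GATA1, GATA5 and ELF5 were listed at 0 in all 4 libraries.

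Of 16 partners and other luminal regulators, 14 were tested, 2 rose and 3 fell. IRF1, an interferon regulatory factor active in urothelial differentiation, fell by 0.52 on the log2 scale (SE 0.07, edgeR adjusted p = 0.00116), KLF4 fell by 0.57 (SE 0.11), and RARG, a retinoic acid receptor, fell by 0.40 (SE 0.09). KLF5, which maintains urothelial differentiation, rose by 0.31 (SE 0.07, edgeR adjusted p = 0.0131). The PPARG partner RXRA had 3134 and 2668 counts with EV, and 2370 and 2799 with TET1-CD, and did not pass the test. Of 16 PPARG targets, 7 were tested, 1 rose and 1 fell. FABP4, a fatty acid binding protein and direct PPARG target, rose from 5 and 15 counts to 33 and 36 (log2 fold change 1.78, SE 0.48, edgeR adjusted p = 0.0271, and between 1.98e-04 and 0.165 over the alternatives). Its log2 fold change was 1.09 without EV replicate 1 and 2.88 without EV replicate 2. PEX11A, a peroxisome division gene, fell by 0.57 (edgeR adjusted p = 0.0189). PLIN2 (-0.20) and ACSL1 (-0.14) did not pass.

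Of 25 luminal and umbrella cell markers, 15 were tested, 6 rose and 4 fell, with a median log2 fold change of 0.01. S100P, a calcium-binding protein of the umbrella cell layer, rose from 3 and 4 counts to 57 and 71 (log2 fold change 4.16, SE 0.39, edgeR adjusted p = 8.59e-05). KRT7, a simple epithelial keratin, rose by 0.34 (SE 0.05). ERBB2, a receptor tyrosine kinase, fell by 0.40 on the log2 scale (SE 0.06). The umbrella cell genes SNX31 and CYP4B1 were listed at 0 throughout. Of 9 genes for delivery of uroplakins to the membrane, 7 were tested, 1 rose and 2 fell. MYO5B, a motor of apical recycling, rose by 0.65 (SE 0.11, edgeR adjusted p = 0.00256), and RAB27B, a GTPase on uroplakin vesicles, fell by 0.53 (SE 0.09, edgeR adjusted p = 0.003).

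**Figure D5:**
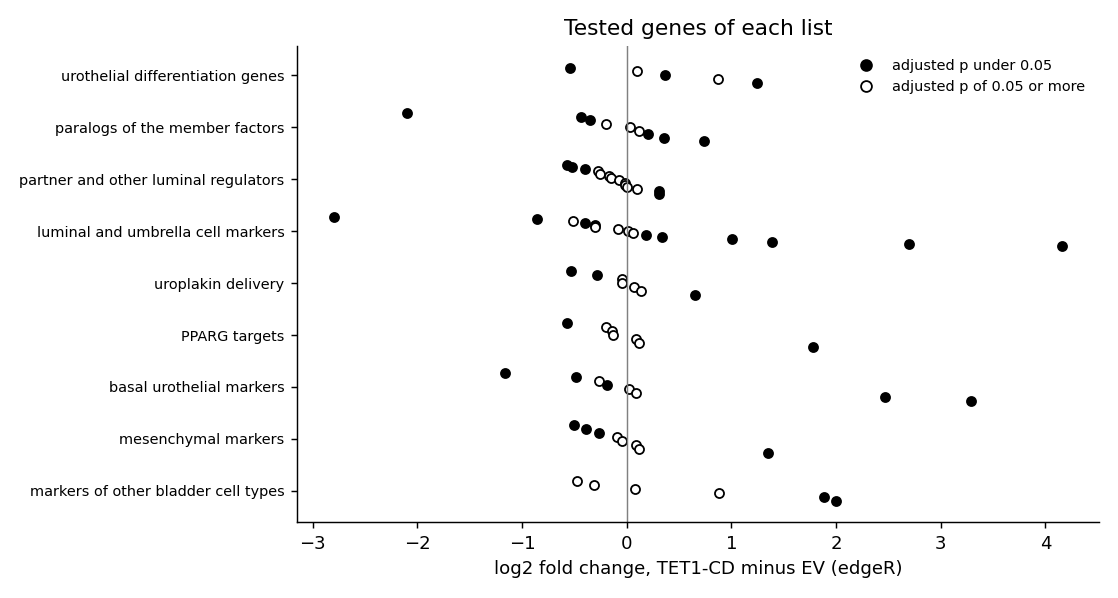
Log2 fold change of TET1-CD over EV cells from edgeR (x axis) for each tested gene of the 10 urothelial differentiation genes and of 8 lists (rows), filled for an adjusted p under 0.05. Every list holds genes on both sides of 0, with S100P (4.16), KRT17 (3.29) and EHF (-2.10) among the points farthest out.

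Basal, mesenchymal and other cell type markers were set beside these values. Of 17 basal markers, 8 were tested, 2 rose and 3 fell. KRT17 rose from 77 and 83 counts to 725 and 831 (log2 fold change 3.29, SE 0.12), and ITGB4 by 2.47. COL17A1 fell by 0.48 and PI3, the elafin gene, fell by 1.16 (edgeR adjusted p = 0.0116). Of 10 mesenchymal markers, 8 were tested, 1 rose and 3 fell. VIM fell by 0.39 (SE 0.06), ZEB2 fell by 0.50 and FN1 fell by 0.26, while SNAI1 rose from 12 and 31 counts to 54 and 56 (log2 fold change 1.35, edgeR adjusted p = 0.0397). The SNAI1 value was 0.72 without EV replicate 1 and 2.31 without EV replicate 2, with an adjusted p of 5.89e-05 to 0.206 over the alternatives. Of the 13 matched markers of other bladder cell types, 6 were tested and 2 rose, COL1A1 by 1.89 and ACTG2 by 2 on the log2 scale. CD68 (-0.31, edgeR adjusted p = 0.129) and CDH5 (0.88, edgeR adjusted p = 0.221) did not pass. CD68 passed without EV replicate 1 (-0.53, edgeR adjusted p = 5.49e-04), and also with no filter (adjusted p = 0.0158) and with the replicate block (adjusted p = 0.0408). The summed level of the latter list was 32.7 to 42 CPM in EV and 49.2 to 49.5 CPM in TET1-CD cells. Its part in the changes of GATA3, FOXA1 and ELF3 was not tested. In bulk RNA, more transcript per cell and more cells with the transcript cannot be told apart.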

How the data were processed

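For each of the 4 libraries, the deposited table gives expected counts per Ensembl transcript, estimates made by the authors that need not be whole, and the authors' FPKM values, which are scaled by transcript length and library size. The submitters' processing notes name cutadapt 1.9.1, HISAT2 2.0.1, HTSeq 0.6.1, DESeq2 and the hg19 build, but the tool behind the estimates is not given in the sources used here. Whether reads were assigned by strand is not stated.

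Expected counts were summed per gene and rounded. TET1-CD and EV cells were compared over all genes by the quasi-likelihood test (glmQLFit, glmQLFTest) of edgeR 4.0.16 under R 4.3.3, after filterByExpr and TMM scaling and without a block, with Benjamini-Hochberg adjustment, and all transcripts were fitted likewise. Each standard error (SE) is the absolute log2 fold change over the root of F. TMM factors were 0.993 to 1.005. Alternatives were DESeq2 1.42.0, limma-voom (limma 3.58.1), RLE or library size scaling, no filter, a minimum of 10 counts per library, blocking by replicate, the omission of each library and the ratio of mean FPKM (pseudocount 0.1). On simulated data of 14508 genes, edgeR recovered 86% of 2-fold and 99% of 4-fold changes, and 10 of 195 calls were unchanged genes. The simulation gave every gene the same preset spread and changed only well-counted genes. It checks the code, and its shares are not the power of the comparison in the real libraries.

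The genes and lists were chosen with earlier results of these data known. The genes named are TET1, the 10 genes, defining markers and up to 4 tested genes with the smallest p per list, and transcripts with at least 5% of their gene. A marker that this rule names is not reported here. SDs, intervals and the floor of 3 counts cover these libraries and counting error only.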

Additional observations from a re-analysis of the deposited data

How the results depend on the processing

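The log2 fold changes of the 5 tested urothelial genes kept their sign under all 11 gene-level alternatives. Their calls depended on the tool and on single libraries. DESeq2 called 0 of the 10 genes, and 0 with a fold change of 2, against 3 and 1 by edgeR, although 3 had an unadjusted p under 0.05 by DESeq2 and 4 by edgeR. Over all genes DESeq2 called 1739 against 2865, and among transcripts of the 10 genes 1 against 0. With 1 library left out, between 0 and 2 of the 10 genes were called, and between 0 and 1 with a fold change of 2. Over all genes, between 832 and 3779 were then called and between 323 and 617 with a fold change of 2, and between 18 and 45 of the other listed genes, against 37. In those fits the lone library of a group is assumed to vary like the other libraries. When a TET1-CD library was left out, the spread thus came from the EV pair alone. The 2 EV libraries differed from each other more than the 2 TET1-CD libraries, with a mean chi-square per gene of 6.45 against 2.75. The part of this difference in the lost calls was not tested. With 10 counts in every library, 332 genes passed with a fold change of 2, against 549. With the replicate number as a block, GATA3, FOXA1 and ELF3 were again the 3 genes called of the 10, so the block changed no call among them, and 3235 of all genes were called. The numbers are not stated to mark a shared culture, and libraries with the same number deviated from their group means with a correlation of 0.007 over all genes tested and 0.217 over those above the median level. With UPK3B and UPK3BL summed, a setting added after the values were seen, the log2 fold change of UPK3B went from 0.87 to -0.14, in the reverse direction. The ratio of mean FPKM gave GATA3 a log2 change of 0.94 in place of 1.25. At this depth UPK1A, UPK1B, UPK3A and GRHL3 could not be compared. Of the other genes named, edgeR no longer called ELF1, PPARD, RARG, KLF5, KRT7, PEX11A, FABP4, VIM, FN1 and SNAI1 without TET1-CD replicate 1, PPARD, KLF4, RARG, KLF5, PEX11A, FABP4, PI3, FN1 and SNAI1 without TET1-CD replicate 2, and FABP4 and SNAI1 without EV replicate 1. DESeq2 did not call KLF5, FABP4, PI3 and SNAI1. UPK3BL by itself was fitted only by edgeR with all libraries, so whether its call depends on the tool or on single libraries was not tested. For the other changes the cause was not tested.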
